A study of Salmo salar with 57 samples.

Results

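AQP4, AQP1 and AQPA, water channel genes of the Atlantic salmon distal intestine, were followed across 6 diets, fish by fish and against the oedema score of the same fish. Each gene was read by 1 probe of the array, Omy_S34422057 for AQP4, Ssa_GRASP209154147 for AQP1 and Ssa_S47729802 for AQPA. They are 3 of the 14841 probes measured and 3 of the 12065 that passed the filter on dim spots, and all 3 gave a signal well above background, unsaturated and not imputed, on every one of the 57 arrays. The probes were picked by name, from tables that name only probes called changed on these same arrays, so the number of calls among them is no independent evidence of a diet effect.

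Post-smolt salmon in seawater were fed for 4 weeks, in 3 tanks per diet, and RNA from the distal intestine of 57 fish was hybridised, 1 fish per array. The fish meal diet (FM, 10 fish) was the negative control and the soybean meal diet (SBM, 7 fish) the positive control, since soybean meal is known to cause an enteritis in salmon. The other diets, of 10 fish each, held soybean meal together with a dried microorganism, which was the alga Chlorella vulgaris (CV) or one of the yeasts Candida utilis (CU), Kluyveromyces marxianus (KM) and Saccharomyces cerevisiae (SC). Soybean meal and microorganism both took the place of fish meal, so the microbial diets differ from FM in more than 1 ingredient. Fish of 1 SBM tank whose histology differed from that of the other SBM tanks were excluded by the authors, and RNA integrity decided which fish were hybridised. The labels name neither diet nor tank, only a letter. The diet of each letter was taken from a key that was checked against the histology scores, so the scores are not compared between diets by a test. Fish of a tank share their water and feed, and p-values measure the spread between fish without regard to tanks.

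Aquaporins are membrane channels that let water cross cells along an osmotic gradient. A salmon in seawater loses water to its surroundings, drinks, and takes water up across the gut wall together with sodium and chloride, and the distal intestine is also the segment in which soybean meal causes inflammation. In mammals, AQP1 is known from the endothelium of small vessels and from red blood cells and AQP4 from the basolateral membrane of gut epithelium. Which class of channel the symbol AQPA stands for in salmon is not given by the tables used here, and 1 probe per gene cannot separate near-identical copies, which salmonid genomes often hold.

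Signals are given as log2 of the quantile-normalised spot brightness, in which 1 unit is a doubling. The brightness of AQP4 was far from the detection limit, at a median of 2024 times the dimmest spot well above background on the same array, whereas AQP1 stood at 7.27 times (2.77 at the lowest) and AQPA at 21.9 times (4.13 at the lowest). Between 1264 and 3320 spots per array (median 2024) were set missing as dim or uneven, and no array correlated with the others below a mean r of 0.956. The arrays lay on 9 slides and were scanned on 2 days, and each day held all diets, but the column of the slide followed the diet closely. CU lay in column 1, 9 of 10 KM fish in column 2, all SBM and 9 of 10 CV fish in column 3, and 9 of 10 FM and SC fish in column 4. Column and diet can therefore be told apart only for SC against FM and CV against SBM. Across all tested probes the median log2 fold change (FC) against FM was 0.17 for CV, 0.14 for KM, 0.09 for SBM, 0.06 for SC and -0.01 for CU.

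A probe was called in a diet when the nested F test of limma over the 5 contrasts against FM passed an adjusted p of 0.05 over all 12065 probes and the log2 FC was at least 0.4 in size. By this rule 1 of the 3 aquaporins was called in SBM (AQP4, below FM), where 22.3% of all tested probes were called and 8.62% were called below FM. In SC, AQP4 was called below and AQPA above FM, with 22.5% of all probes called, 9.28% below and 13.2% above. In CV, with a background of 10.6% (9.99% above), and in KM, with 11.2% (9.3% above), AQP1 and AQPA were both called above FM. In CU, with a background of 5.36% (3.34% below), AQPA alone was called, below FM. A count over 3 probes is too small to be read as a share against these backgrounds. In CV, 94.3% of the called probes were above FM, and this split was 68.7% with arrays scaled to their 75th percentile and 42.9% once the median shift of all probes was taken off. In KM the same split was 83.3%, 60.7% and 47.2%, in SBM it was 61.3%, 46.3% and 46.5%, and in SC it was 58.7%, 50.9% and 48.2%. In CU it was 37.7%, 26.3% and 44.8%. In the authors' deposited table of log2 values, 634 probes were called in CV, 72.7% of them above FM, against 1278 here. In KM that table gave 969, 61.9% of them above FM, against 1347 here. None of these scalings changed the sign of a called aquaporin difference.

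AQP4 was lower in SBM and SC than in FM, and its means in the other soybean meal diets lay between. In FM its log2 signal ranged from 14.16 in fish 3 over a median of 14.46 to 14.72 in fish 4. In SBM the 7 fish ranged from 13.40 over a median of 13.84 to 14.07, so that every SBM fish lay below every FM fish. Over all tested probes, 2.86% separated SBM from FM in this way. The mean was 13.80 ± 0.24 (SD, n = 7) in SBM against 14.45 ± 0.15 (SD, n = 10) in FM, a log2 FC of -0.65 (SE 0.10), or 63.6% of the FM level (limma nested F, adjusted p = 1.09e-05, shared by the 5 contrasts). SC fish ranged from 13.73 over a median of 13.99 to 14.24, and 8 of 10 lay below the lowest FM fish. Their mean of 13.99 ± 0.18 (SD, n = 10) gave a log2 FC of -0.46 (SE 0.09), or 72.5% of FM, and this was called.

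AQP4 means in CV, CU and KM fell between those in FM and SBM. CV fish ranged from 13.77 over a median of 14.18 to 14.41, CU fish from 13.83 over 14.16 to 14.42, and KM fish from 13.86 over 14.22 to 14.69. These ranges overlapped those of both FM and SBM, although all 10 CV fish, all 10 CU fish and 7 of 10 KM fish were under the FM mean. The log2 FC was -0.29 in CV, -0.27 in CU and -0.19 in KM (SE 0.09 each), below the size limit of the call in all of these diets. Adjusted within each contrast by limma, p was 0.0267 in CV, 0.0681 in CU and 0.134 in KM, against 1.33e-06 in SBM and 7.01e-05 in SC. With the median shift of all probes taken off, the CV difference was -0.45 and was called. Before any scaling between arrays, the median processed signal of AQP4 was 17157 for FM, 19438 for CV, 20095 for CU, 19093 for KM, 15824 for SC and 14398 for SBM, so the lower values of CV, CU and KM appeared only once arrays were brought to a common scale. For SC and SBM the unscaled medians were also below FM, but single fish overlapped. Unscaled AQP4 signals ran from 13441 to 24397 in FM, 11834 to 19253 in SC and 13178 to 18324 in SBM. The separation of every SBM fish from every FM fish therefore held only on the common scale. Whole arrays also differed in brightness before scaling. The median processed signal of an array ran from 89.5 to 203 in FM and from 122 to 285 in CV. It ran from 87.8 to 267 in CU and from 130 to 221 in KM. In SC it ran from 118 to 197 and in SBM from 122 to 213.

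**Figure D1:**
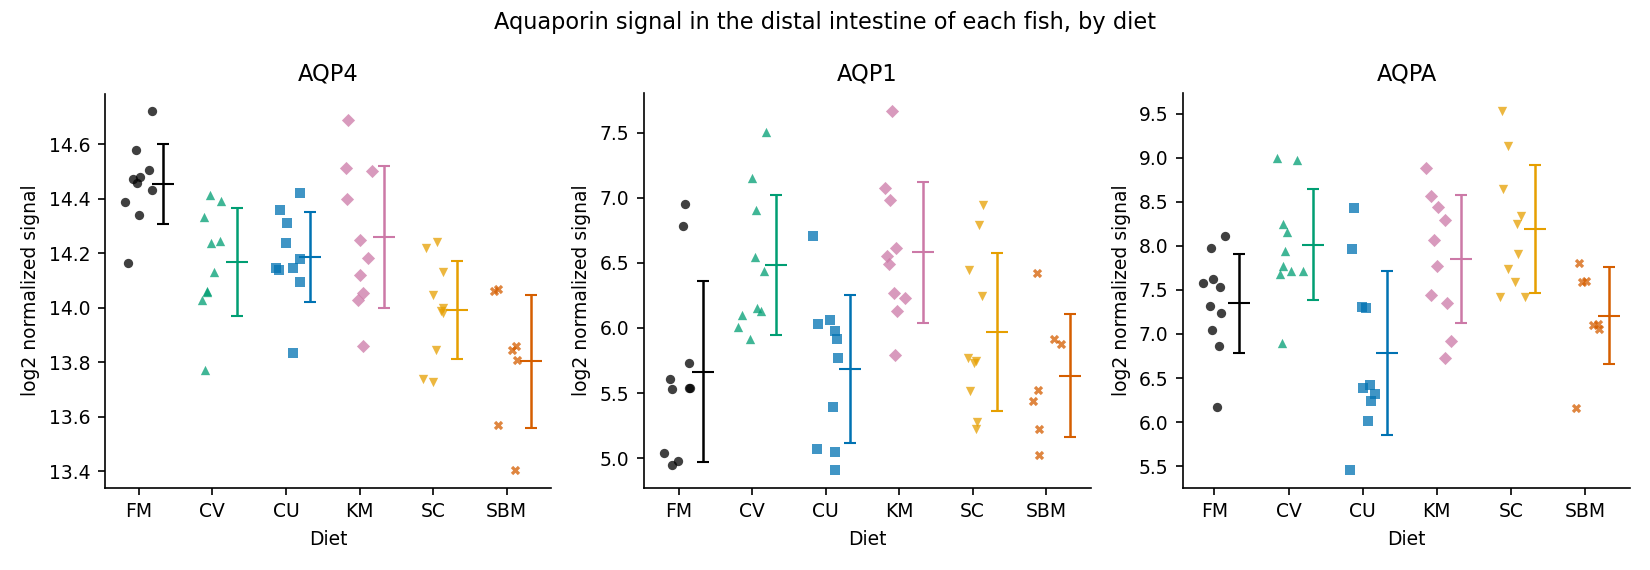
Log2 normalised signal of AQP4, AQP1 and AQPA (vertical axes) in each of the 57 fish by diet (horizontal axes), with a bar for the mean and its SD beside the points, 10 fish per diet and 7 in SBM. All 7 SBM fish lie below the lowest FM fish (14.16) for AQP4, while AQP1 and AQPA values overlap between all diets.

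The AQP4 differences were of like size on both scan days. Within day 1 the difference from FM was -0.65 in SBM and -0.40 in SC, and within day 2 it was -0.65 and -0.51. Slide by slide, AQP4 was below FM on all 7 slides that held both SBM and FM and on all 9 that held SC and FM. Among the arrays of column 4 alone, which is where SC and FM meet, SC was lower by a log2 FC of -0.49 (SE 0.10) and was called.

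AQP1 was higher in CV and KM than in FM and close to FM in CU and SBM. FM fish ranged from 4.95 over a median of 5.54 to 6.95 on the log2 scale. CV fish ranged from 5.92 over a median of 6.30 to 7.50, and KM fish from 5.79 over 6.52 to 7.66. The groups overlapped, because FM fish 6 and 7 read above the medians of CV and KM, but all 10 fish of CV and all 10 of KM were above the FM mean. Mean signals were 6.49 ± 0.54 in CV, 6.58 ± 0.54 in KM and 5.66 ± 0.69 in FM (SD, n = 10 each), giving a log2 FC of 0.82 (SE 0.25) in CV and 0.92 (SE 0.25) in KM, or 1.77-fold and 1.89-fold (limma nested F, adjusted p = 0.00204). Scaling arrays to their 75th percentile gave 0.54 in CV and 0.67 in KM, and the deposited table gave 0.64 and 0.76, all called. With no filter on dim spots the values were 0.57, not called, and 0.71, called. The part of the processing in these differences was not tested. Adjusted within the contrast, p was 0.0223 in CV and 0.0103 in KM.

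The other diets did not reach the call for AQP1. SC fish ranged from 5.22 over 5.76 to 6.95 with a log2 FC of 0.31 (95% interval -0.20 to 0.81). CU fish ranged from 4.91 over 5.84 to 6.70 with a log2 FC of 0.02 (-0.48 to 0.53). SBM fish ranged from 5.03 over 5.53 to 6.42 with a log2 FC of -0.03 (-0.59 to 0.53). The SC interval reached close to the size called in CV, and those of CU and SBM ended at 0.53. Within scan day 1 the AQP1 difference was 0.43 in CV, 0.73 in KM and -0.66 in CU, and within day 2 it was 1.22, 1.18 and 0.71, and the difference between days was not tested. AQP1 was the dimmest of the 3 probes, and with normexp background correction at an offset of 50, which compresses dim signals, the differences were 0.25 in CV and 0.28 in KM and neither was called.

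AQPA was called above FM in SC, CV and KM and below FM in CU, with wide spreads in every diet. The 95% interval of the difference spanned 0 in KM and CU. FM fish ranged from 6.17 over a median of 7.43 to 8.12 on the log2 scale. SC fish ranged from 7.42 over 8.08 to 9.53, with 5 of 10 above the highest FM fish and all 10 above the FM mean. CV fish ranged from 6.90 over 7.86 to 9.0 and KM fish from 6.73 over 7.92 to 8.88, with 4 of 10 fish in each above the highest FM fish. CU fish had the widest range, from 5.46 over 6.40 to 8.43, with 2 fish below the lowest and 1 above the highest FM fish. SBM fish ranged from 6.16 over 7.11 to 7.81, within the FM range but for 1 fish.

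The mean AQPA signal was 8.20 ± 0.73 for SC, 8.01 ± 0.63 for CV, 7.85 ± 0.72 for KM, 7.35 ± 0.56 for FM and 6.78 ± 0.93 for CU (SD, n = 10 each). It was 7.21 ± 0.55 (SD, n = 7) in SBM. The log2 FC against FM was 0.85 (SE 0.31) for SC, 0.67 (SE 0.31) for CV, 0.50 (SE 0.31) for KM, -0.56 (SE 0.31) for CU and -0.14 (SE 0.34) for SBM (limma nested F, adjusted p = 0.0011). The 95% intervals were 0.23 to 1.47 for SC, 0.05 to 1.28 for CV, -0.12 to 1.12 for KM, -1.18 to 0.05 for CU and -0.82 to 0.54 for SBM. Only SC also passed limma's adjustment within its own contrast (adjusted p = 0.0268), and the values there were 0.121 for CV, 0.258 for KM, 0.284 for CU and 0.784 for SBM. The CU call was lost without CU fish 7 (log2 FC -0.42), and the KM call was lost without FM fish 7 (0.37) or without KM fish 2 (0.45), 3 (0.42), 5 (0.44) or 6 (0.39). Within scan day 1 and day 2 the difference was 1.21 and 0.58 for SC, 0.80 and 0.54 for CV, 0.33 and 0.59 for KM, and -0.75 and -0.38 for CU. Slides agreed less. AQPA was above FM on 6 of 9 slides in SC, 8 of 9 in CV and 5 of 9 in KM. In CU it was below FM on 7 of 9. With the same 4 arrays of column 1 left out, so that SC and FM meet in column 4, the SC difference was 0.84 (SE 0.33). It was called in the model of all 6 diets.

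**Figure D2:**
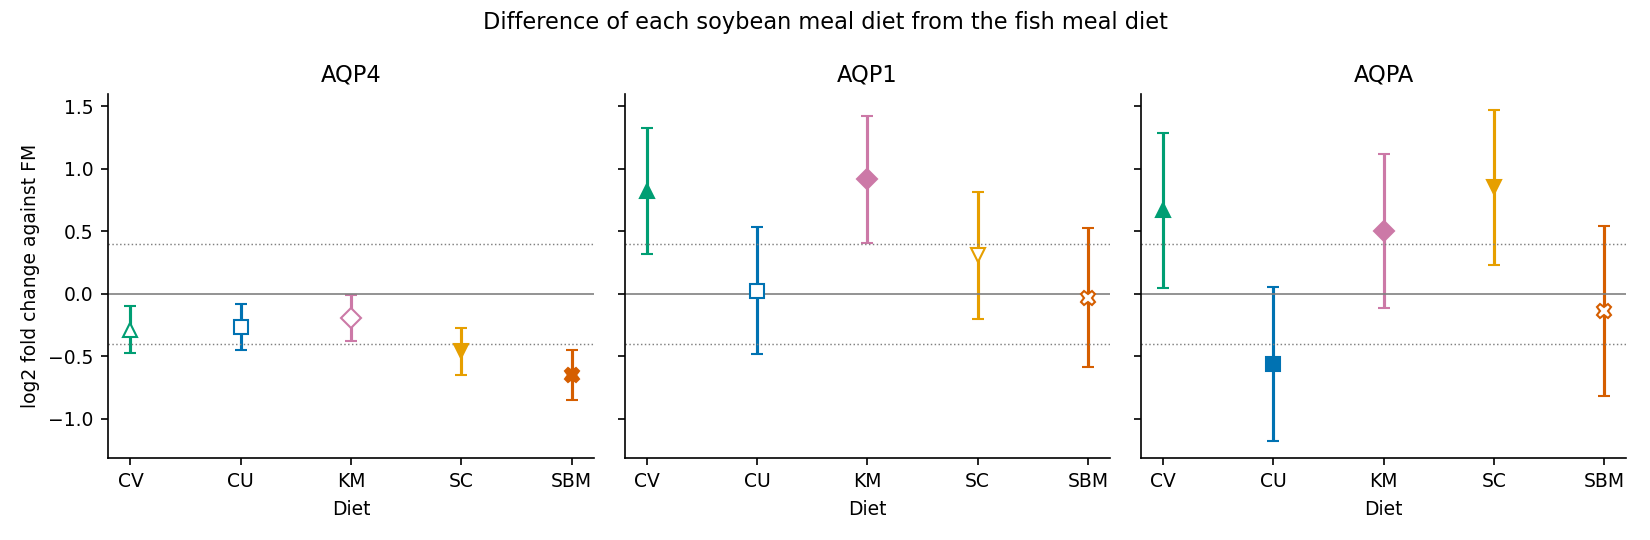
Log2 fold change of each diet against FM (vertical axis) with its 95% interval, for AQP4, AQP1 and AQPA, by diet (horizontal axes). Filled symbols were called and open ones were not, and dotted lines mark the size limit of 0.4. AQP4 estimates lie below 0 in all 5 diets, while AQPA runs from -0.56 in CU to 0.85 in SC.

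Set in order of the mean, AQP4 was ordered SBM (13.80), SC (13.99), CV (14.17), CU (14.19), KM (14.26) and FM (14.45). AQP1 was ordered SBM (5.63), FM (5.66), CU (5.69), SC (5.97), CV (6.49) and KM (6.58), and AQPA was ordered CU (6.78), SBM (7.21), FM (7.35), KM (7.85), CV (8.01) and SC (8.20). No 2 diets that were neighbours in any of these orders differed beyond their spread after adjustment over all probes (limma, adjusted p from 0.132 to 0.999 over the 15 neighbouring pairs). Neighbours are the closest means by choice, so this says little of diets farther apart. The lowest adjusted p were those of the steps from SC to CV for AQP1 (0.52, SE 0.25, adjusted p = 0.132) and from KM to FM for AQP4 (0.19, SE 0.09, adjusted p = 0.134), and these were the 2 of 15 with an unadjusted p under 0.05. Between the same diets the adjusted p was passed by 33.8% of all probes for SBM and FM, 23.9% for SC and CV, 16.9% for SC and CU, 16.1% for KM and FM, 9.44% for SBM and CU, 5.84% for CU and FM, 3.15% for KM and CU, 0.307% for SBM and SC, 0.232% for CU and CV, and 0.0829% for KM and CV. Some microbial diets that were not neighbours did pass the adjusted p of limma, with no size limit. For AQPA, SC was above CU by 1.41 (SE 0.31, adjusted p = 0.000986) and KM above CU by 1.07 (SE 0.31, adjusted p = 0.0426). For AQP1, KM was above CU by 0.89 (SE 0.25, adjusted p = 0.0395). For AQP4 the difference of SC from KM was -0.27 (SE 0.09, adjusted p = 0.0454). The other pairs of microbial diets did not pass. FM was the highest diet for AQP4, but stood in the lower part of the order for AQP1 and in the middle for AQPA.

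Each microbial diet was then set against SBM, from which it differs by the microbial ingredient and also by less fish meal and somewhat more fish oil. These cannot be told apart. Here p was adjusted by limma over all probes within each contrast, with the same size limit. AQP4 was higher in KM than in SBM, by a log2 FC of 0.46 (SE 0.10, adjusted p = 0.00257), and 7 of 10 KM fish lay above the highest SBM fish. AQP4 and AQP1 were the called aquaporins of KM, where 8.71% of all probes were called and 6.51% were above SBM. In CU, AQP4 was higher by 0.38 (SE 0.10, adjusted p = 0.0109) with 9 of 10 fish above the highest SBM fish, and in CV by 0.36 (SE 0.10, adjusted p = 0.0105) with 6 of 10. Both passed the p but lay just under the size limit. CU had no called aquaporin against a background of 7.28%, and AQP4 was the only one of the 3 with an unadjusted p under 0.05 there (limma, 0.000385). In SC the AQP4 difference from SBM was 0.19 (95% interval -0.01 to 0.39, adjusted p = 0.399), and no aquaporin was called there, where 0.307% of all probes were called and AQPA alone had an unadjusted p under 0.05 (limma, 0.00514).

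AQP1 was higher than in SBM in KM (log2 FC 0.95, SE 0.28, adjusted p = 0.0225) and in CV (0.85, SE 0.28, adjusted p = 0.0308), and 10.8% of all probes were called in CV, 8.01% above SBM. All 10 fish of each diet were above the SBM mean, and 6 KM fish and 5 CV fish were above the highest SBM fish. In SC the difference was 0.34 (95% interval -0.22 to 0.90) and in CU 0.05 (-0.50 to 0.61). AQPA passed in no diet, with log2 FC against SBM of 0.99 in SC (SE 0.34, adjusted p = 0.177), 0.81 in CV (adjusted p = 0.10), 0.64 in KM (adjusted p = 0.211) and -0.42 in CU (adjusted p = 0.463). The CV call of AQP1 was lost without SBM fish 3, 4, 5 or 6 (0.83, 0.78, 0.82 and 0.75) and without CV fish 1, 3 or 5 (0.81, 0.74 and 0.78), and the KM call was lost without SBM fish 4 (0.88) or 6 (0.85). The KM call of AQP4 was lost without SBM fish 2 (0.39). Calls of AQP4 were gained without SBM fish 5 or 6 in both CV (0.41 each) and CU (0.43 each), without CV fish 10 in CV (0.41) and without CU fish 1 in CU (0.42).

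Oedema, the accumulation of fluid in the lamina propria under the epithelium, was scored from 0 to 2 in each fish. All 10 FM fish scored 0 and all 7 SBM fish scored 2. In CV 1 fish scored 1, in CU 3 fish scored 1 and in KM 8 fish scored 1, the rest scoring 0. SC alone spread over the whole scale, with 2 fish at 0, 5 at 1 and 3 at 2. Pooled over diets, AQP4 had a median of 14.28 in the 30 fish without oedema, 14.09 in the 17 with a score of 1 and 13.83 in the 10 with a score of 2. This order cannot be told apart from the diets, because the scores differed between diets. Of the 30 fish at score 0, 10 were FM, and of the 10 at score 2, 7 were SBM and 3 were SC. AQP1 medians were 5.99, 6.23 and 5.76 at the same scores, and AQPA medians were 7.65, 7.78 and 7.59, so neither ran in 1 direction.

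Within diets, AQP4 changed by -0.14 per score point (SE 0.06), AQP1 by 0.02 (SE 0.19) and AQPA by -0.36 (SE 0.22). None passed adjustment over all probes (limma, adjusted p = 0.685, 0.991 and 0.734), and no probe of the 12065 did. At an unadjusted p of 0.05, 848 probes passed (7.03%), among them AQP4 (unadjusted p = 0.0393) but neither AQP1 nor AQPA. In SC the AQP4 means were 14.19 at score 0 (2 fish), 14.01 at score 1 (5 fish) and 13.84 at score 2 (3 fish), with r = -0.71 and rho = -0.66 over 10 fish. The permutation p was 0.0237 for r and 0.0429 for rho, two-sided, or 0.214 and 0.387 when adjusted over the 9 relations of 3 genes in 3 diets. In SC 5 fish tied as farthest from the median score, and leaving out each of the 10 pairs of them gave r from -0.85 to -0.45. In CU the AQP4 relation was r = -0.38 (rho = -0.34, two-sided permutation p = 0.274 and 0.385), and without 2 of the 3 fish with a score of 1 it ran from -0.81 to 0.43. In KM it was r = -0.04 (rho = 0.00, p = 0.912 and 1). Of the other relations, AQPA in KM came closest (r = -0.59, rho = -0.61, two-sided permutation p = 0.0643 and 0.0876, adjusted p = 0.289 and 0.394), where both fish with a score of 0 were high in the diet, at 8.45 and 8.88, against a median of 7.61 in the 8 fish with a score of 1. With the lamina propria score in the same model, the AQP4 slope was -0.06 (SE 0.08) and the AQPA slope was -0.62 (SE 0.26), and neither passed (limma, adjusted p above 0.9 for both).

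**Figure D3:**
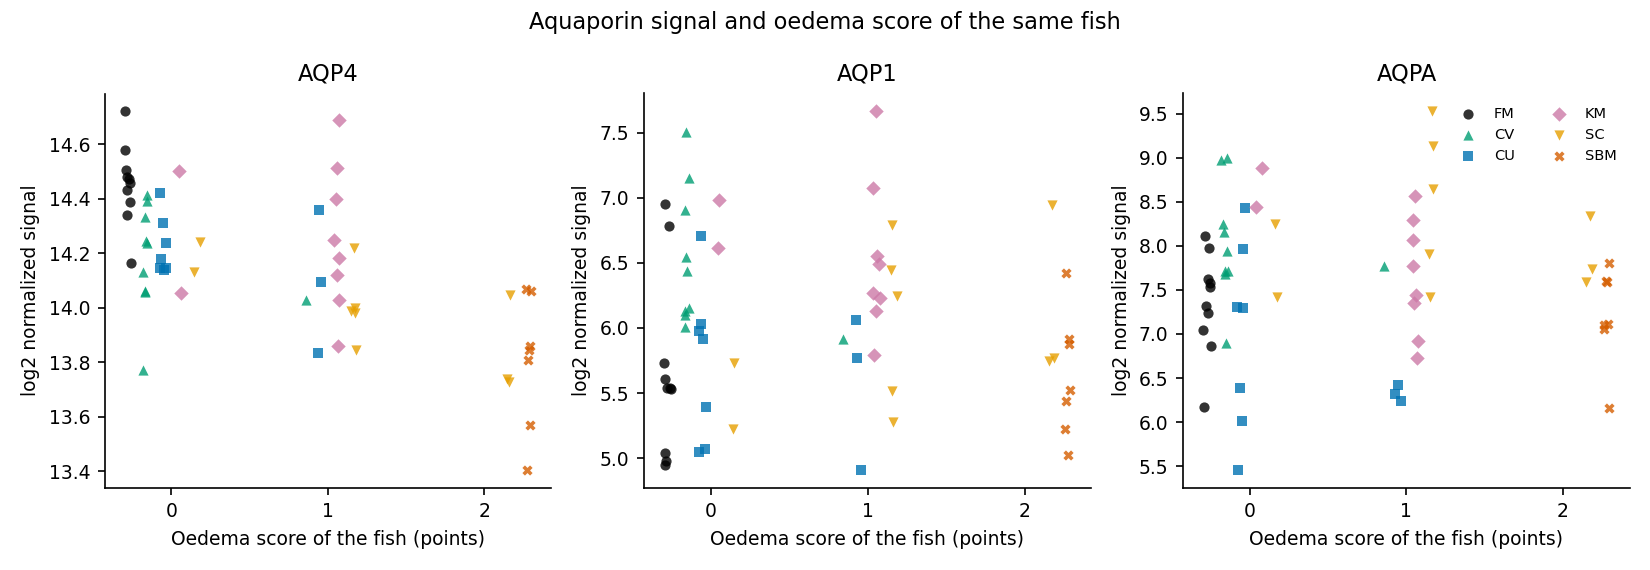
Log2 normalised signal of AQP4, AQP1 and AQPA (vertical axes) against the oedema score of the same fish (horizontal axes, 0, 1 or 2 points), with 1 point per fish. Symbols and colours mark the diet, and points of a diet are shifted sideways from their score for clarity. FM lies wholly at 0 and SBM wholly at 2, and AQP4 medians at scores 0, 1 and 2 are 14.28, 14.09 and 13.83.

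No relation among the 3 aquaporins passed a test within diets. With diet means taken off, r over 57 fish was 0.16 between AQP1 and AQPA, -0.23 between AQP1 and AQP4 and -0.19 between AQP4 and AQPA. Spearman's rho within diets was 0.19, -0.20 and -0.24. The p came from two-sided permutation within diets (adjusted p = 0.240 for each r and 0.191 for each rho, over 3 relations). Leaving out the 2 fish farthest from the median in the first-named gene of each pair, with diet means taken off, gave r of 0.25, -0.26 and -0.20.

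Among the 2330 other probes with a name, the pattern most like that of AQP4 over 57 fish was that of SND1 (r = 0.94), a nuclease domain protein. It was followed by XPP2, a brush border aminopeptidase (0.83), FCGBP, a protein of intestinal mucus (0.83), APOA4, an apolipoprotein of absorptive cells (0.81), and the transcription factor MAF (0.81). With diet means taken off, the first 4 symbols kept their places, with r of 0.88, 0.74, 0.72 and 0.71, although XPP2 was then read by another probe. AQPA was most like ASAP1 (r = 0.69), FINC, which is fibronectin (0.68), SPRC, an extracellular matrix protein (0.67), TGM1, a transglutaminase (0.67), and SPTB2, a spectrin (0.67). With diet means off its closest named probes were F212A (0.57), FINC (0.56), SYT4 (0.56), ASSY (0.56) and TGM1 (0.56). AQP1 had no close partner, its highest r being 0.53 with ZG16, a secretory granule lectin, followed by LMO41, ZBED1, RAB34 and INO1A (0.51 to 0.52). With diet means off they were IL31R, CXL11, ALG14, HVCM and CXB6 (0.48 to 0.50). All these correlations share the arrays and their normalisation and are given as a description.

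No other aquaporin is named by the tables used here, so the surroundings of the 3 genes were read from 2 other lists. Their probes mostly carry a name because they were called on these arrays. A high share called in these lists therefore follows in part from how they were named. The shares over all probes are given beside it, but are not a like base. The first holds the named genes of bile secretion, 11 probes of 10 genes, among them carriers and pump subunits for sterols, organic anions, sugar and ions, a bile acid receptor, a hormone receptor, a kinase subunit and a sterol ester hydrolase. In SC 8 of 11 were called below and 2 above FM, where 9.28% of all probes were below and 13.2% above, with a median log2 FC of -0.71 beside 0.06 for all probes. In SBM 7 of 11 were below and none above, where 8.62% of all probes were below, with a median of -0.59 beside 0.09. In KM 2 were below and 2 above, with 11.2% of all probes called, in CV 1 was above, with 10.6% called, and in CU none was, with 5.36% called. The medians were -0.21 for KM, 0.16 for CV and -0.26 for CU. The largest called differences in SC were those of SC5A1, the sodium/glucose cotransporter (-1.27 and -0.94 for 2 probes), AT1B4 (-1.24), of the family of sodium pump beta subunits, and NCEH1, a cholesterol ester hydrolase (-1.13). In SBM they were AT1B4 (-1.50), the sterol exporter ABCG5 (-0.85), the organic anion transporter S22A7 (-0.75) and the bile acid receptor NR1H4 (-0.67). AQP4 was called below FM in the same 2 diets, with a log2 FC of -0.46 in SC and -0.65 in SBM.

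**Figure D4:**
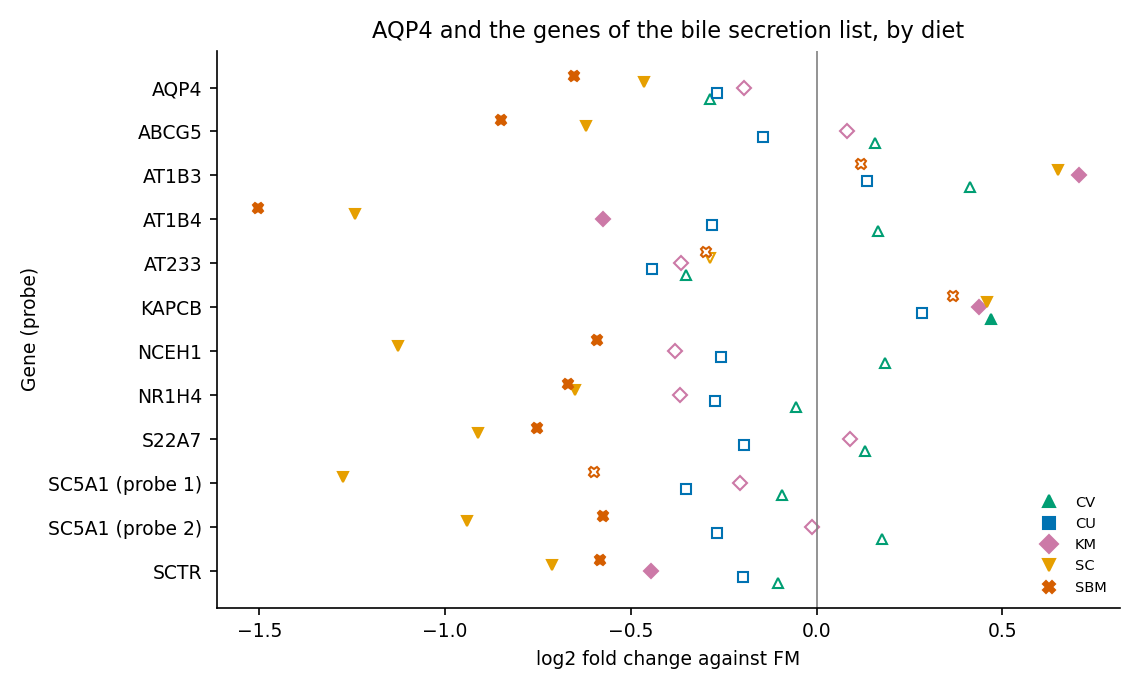
Log2 fold change against FM (horizontal axis) of AQP4 and of the 11 probes of the bile secretion list (vertical axis), with 1 symbol per diet, filled where called. In SC 8 and in SBM 7 of the 11 list probes were called below FM, and AQP4 stands at -0.46 and -0.65 in these diets.

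The second list, of salt and fluid transport, holds 18 probes of 13 genes, 6 of these probes also being in the first list. It was split in direction. In SC 6 were above and 6 below FM, where 22.5% of all probes were called, and in SBM 4 were above and 6 below, where 22.3% were. In KM 6 were above and 3 below, with 11.2% of all probes called. In CV and CU 2 were above and none below, with 10.6% and 5.36% called. The median log2 FC was 0.01 for SC, -0.05 for SBM, -0.06 for KM, 0.21 for CV and -0.03 for CU. The anion exchanger S26A6, which moves chloride and bicarbonate, was below FM with a log2 FC of -2.54 in SBM, -2.40 in SC and -0.91 in KM. The VIP receptor VIPR2 was above FM in SC (1.25) and KM (1.09), and the potassium channel subunit KCNE4 was above FM with 3 of 3 probes in SC (up to 1.07), 2 of 3 in SBM (up to 0.82) and KM (up to 0.81) and 1 of 3 in CV (0.59). The sodium/proton exchanger SL9A8 was called above FM in 4 of the 5 diets, with 0.73 for CV, 0.57 for SBM, 0.44 for KM and 0.43 for CU. Several other differences called below FM were larger in size than those of SL9A8. They were those of AT1B4 (-1.24 in SC, -1.50 in SBM), SC5A1 (-1.27 and -0.94 in SC) and the carbonic anhydrase CAH4 (-1.06 in SC).

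Marker genes of the cell types that whole intestine can hold were matched through the same tables, which name probes called on these arrays, so that a matched marker is called in some diet follows from how it was named. Fewer cells of a type and less RNA per cell cannot be told apart in such tissue. Of the smooth muscle list, 2 of 8 symbols were matched, by 3 probes for the filament protein DESM and the myosin MYH11. All 3 were above FM in SC (median log2 FC 0.79), 2 of 3 in KM (0.65) and 1 of 3 in CV (0.56), and none was called in CU (0.12) or SBM (0.05). Beside this list and the next, 13.2% of all probes were called above FM in SC, 9.3% in KM and 9.99% in CV. In either direction, 5.36% were called in CU and 22.3% in SBM. The median log2 FC of all probes was 0.06 in SC, 0.14 in KM and 0.17 in CV. These shares are not a like base. The summed log2 level of these probes ranged from 11.66 to 13.59 for FM, 12.82 to 13.99 for SC, 12.65 to 13.89 for KM, 12.25 to 14.29 for CV, 11.56 to 13.55 for CU and 11.73 to 13.34 for SBM. Of the endothelium list only PECA1 was matched (1 of 8), an adhesion protein of vessel walls, and it was above FM in KM (0.67), SC (0.59) and CV (0.48) and not called in SBM (0.23) or CU (-0.07). Its log2 level ranged from 6.84 to 8.87 for FM, 8.19 to 9.0 for SC, 8.32 to 9.32 for KM, 8.10 to 8.95 for CV, 7.18 to 8.82 for CU and 7.70 to 8.85 for SBM. SC, KM and CV were also the diets in which AQPA was called above FM, and CV and KM those in which AQP1 was. The AQPA call in KM was lost under 8 of 14 alternatives. CV and KM were also the diets with the largest median shift of all probes (0.17 and 0.14). Whether marker and aquaporin calls are linked was not tested.

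Among fish of a diet, AQPA rose and fell with PECA1 (r = 0.45, rho = 0.35 within diets, 57 fish, positive in 6 of 6 diets) and with the mean of the smooth muscle probes (r = 0.40, rho = 0.33, positive in 5 of 6 diets). The two-sided permutation p for r was 0.00089 and 0.0041 within diets, or 0.0107 and 0.0244 adjusted over the 12 relations of 3 genes with 4 lists. For rho it was 0.0142 and 0.0178, and neither passed (adjusted p = 0.107 for both). Without the 2 fish whose marker level, with diet means taken off, lay farthest from its median, r was 0.47 and 0.36. AQPA values played no part in that choice. These relations also share the arrays and their normalisation, and PECA1 was read by 1 probe. With diet means taken off, other named probes came closer to AQPA, such as F212A (r = 0.57) and SYT4 (0.56). AQP1 had r of 0.18 with PECA1 and 0.00 with smooth muscle, and its highest was 0.29 with the leukocyte list (two-sided permutation p = 0.0344, adjusted p = 0.138). AQP4 had r between -0.07 and 0.18 with the 4 lists, and none passed.

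**Figure D5:**
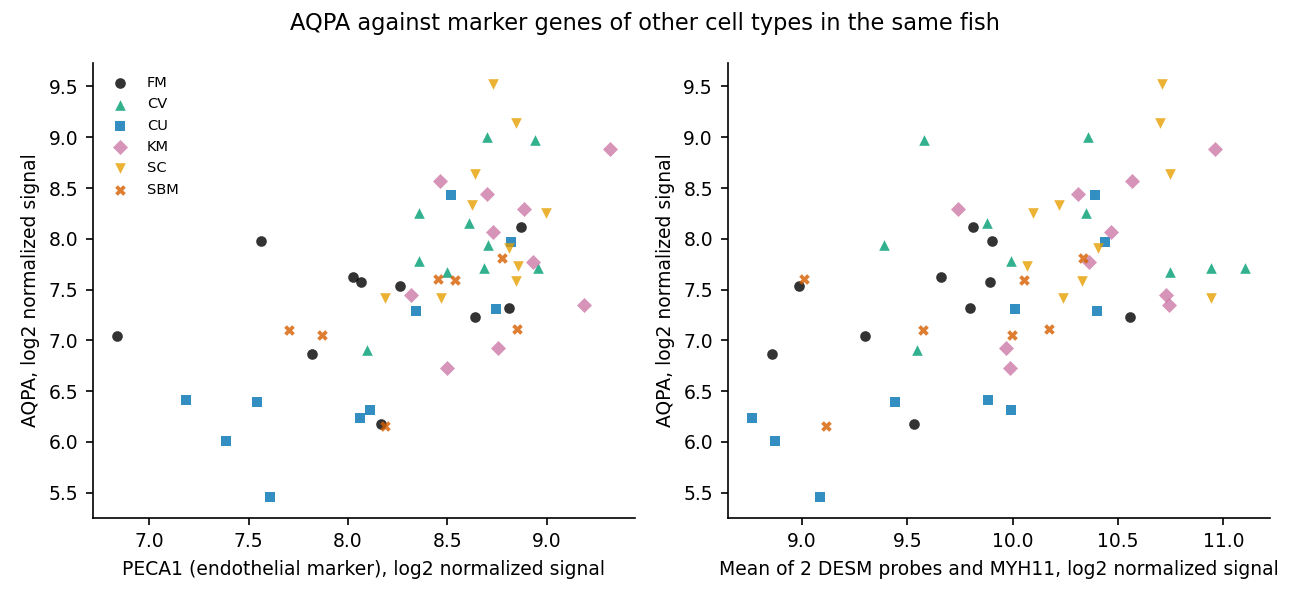
Log2 normalised signal of AQPA (vertical axes) in the 57 fish against PECA1 and against the mean of the 3 smooth muscle probes (horizontal axes), with diets marked by symbol and colour. With diet means taken off, r was 0.45 for PECA1 and 0.40 for the smooth muscle probes.

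The epithelium list matched 4 of 12 symbols with 7 probes, and went both ways in the diets with lower AQP4. In SBM 4 probes were above FM, all of them the keratins K1C18 and K2C8 (up to 1.09), and 2 were below, the fatty acid binding protein FABPI (-1.32) and the amino acid transporter S6A19 (-1.65). The second S6A19 probe stood at -0.32 in SBM and was not called. In SC 3 were above and 2 below, the latter FABPI (-1.89) and S6A19 (-1.37), with the second S6A19 probe at 0.06. The summed log2 level of the list, set mostly by its brightest probes, ranged from 16.50 to 17.34 in FM, 16.89 to 17.18 in SBM and 16.77 to 17.25 in SC. Of the leukocyte list 5 of 13 symbols were matched with 6 probes, of which 3 were above and 2 below FM in SC, 2 above and 1 below in SBM, 2 above in KM and 1 above in each of CV and CU. Beside the epithelium and leukocyte lists, the share of all probes called was 22.5% in SC and 22.3% in SBM. It was 11.2% in KM, 10.6% in CV and 5.36% in CU. Its summed log2 level ranged from 11.94 to 12.30 in FM, 11.66 to 12.02 in SC and 11.70 to 12.21 in SBM. No symbol of the red blood cell list was matched, so blood in the samples was not looked at here. The part of smooth muscle, vessel wall, epithelium or leukocyte content in the aquaporin differences was not tested.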

How the data were processed

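RNA of the distal intestine of 57 Atlantic salmon was hybridised by the authors to one-colour (Cy3) Agilent 60-mer arrays, 1 fish per array, and read with Agilent Feature Extraction. The deposited scanner intensity values are background-subtracted spot signals with no scaling between arrays. The deposited table of log2 values was made by the authors by filtering, quantile normalisation and imputation, and served as an alternative here. Probe names were taken from tables that hold only probes called on these arrays.

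Diets were assigned from the letter of each label by a key that was checked against the histology scores. Following the study's methods, spots were set missing where a scanner flag marked them as uneven, dim against their background or without significant signal, control spots left out, arrays quantile-normalised, log2 taken, probes missing on more than 15% of arrays dropped, and 0.617% of values imputed from the 10 nearest probes. A model with 6 diets was fitted to the 57 arrays with limma 3.58.1 in R 4.3.3. Contrasts against FM were called by nested F with Benjamini-Hochberg adjustment at 0.05 and a log2 FC of at least 0.4, and contrasts against SBM within each contrast. The oedema slope was fitted with diet in the model. Permutation tests drew 100000 resamples, within diets, in Python 3.11.15. The scripts were tested on simulated data.

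The members and lists were chosen with earlier results of these data known. Named are the 3 aquaporins, the 5 named probes most correlated with each gene, and for bile secretion the 4 largest called log2 FC. In the salt and fluid list the named genes were not picked by size alone. Marker lists were epithelium, smooth muscle, leukocyte, red blood cell and endothelium. For arrays, the number of fish limits the precision. Alternatives covered the scaling, filter, background, imputation, model, blocks and each fish left out in turn.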

Additional observations from a re-analysis of the deposited data

How the results depend on the processing

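The differences of AQP4 in SBM and SC from FM and of AQPA in SC from FM, and that of AQP4 in KM from SBM, kept their direction and call under every alternative run apart from single fish left out. Of 396 values under such alternatives, 359 kept direction and call, 21 lost a call, 8 gained one and 8 changed sign.

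Sign changes were all of AQP1 values near 0. Against FM in CU its value was -0.11 when arrays were scaled to their 75th percentile, -0.016 with normexp and -0.028 with slide as a block, and its oedema slope was -0.038 with 75th percentile scaling, -0.0063 without the filter, -0.0063 with the filter applied only after normalisation, -0.0295 with scan day as a block and -0.013 without the 4 arrays in column 1 (chosen after seeing the data). AQP1 in CV against FM was 0.57 with no filter and 0.25 with normexp, and in KM 0.28 with normexp, none of them called. AQP1 in CV against SBM was not called with no filter (0.76), normexp (0.28), the median of all probes taken off (0.77) or the replicate block by fish number (0.85), nor in KM with normexp (0.31).

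AQPA in KM against FM lost its call with 75th percentile scaling (0.37), no filter (0.38), the filter applied afterwards (0.38), normexp (0.32), the deposited table (0.40), the median taken off (0.37), only 2 diets in the model (0.50) and adjustment within the contrast (0.50). With only 2 diets and with adjustment within the contrast, AQPA in CV (0.67) and in CU (-0.56) also lost it, and in CU it was lost with normexp (-0.21). AQPA in CV against SBM was called (0.81) with 2 diets alone. AQP4 in CV against FM was called with the median taken off (-0.45) and with no size limit (-0.29). AQP4 in CU against SBM was called with no filter (0.41), the filter applied afterwards (0.41), the deposited table (0.40) and the median taken off (0.48), and in CV without the 4 arrays of column 1 (0.41). The cause of these changes was not tested. Normexp used the median spot signal, with an offset of 50.

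With each fish of the compared diets left out in turn, values against FM ran from -0.32 to -0.24 in CV, -0.30 to -0.23 in CU, -0.24 to -0.15 in KM, -0.50 to -0.43 in SC and -0.70 to -0.59 in SBM for AQP4. For AQP1 they ran from 0.71 to 0.96 in CV, -0.090 to 0.17 in CU, 0.79 to 1.06 in KM, 0.20 to 0.45 in SC and -0.16 to 0.11 in SBM. For AQPA they ran from 0.53 to 0.79 in CV, -0.75 to -0.42 in CU, 0.37 to 0.63 in KM, 0.70 to 0.94 in SC and -0.27 to 0.034 in SBM. Against SBM they ran for AQP4 from 0.30 to 0.41 in CV, 0.32 to 0.43 in CU, 0.39 to 0.50 in KM and 0.12 to 0.23 in SC, for AQP1 from 0.74 to 0.98 in CV, -0.059 to 0.19 in CU, 0.83 to 1.08 in KM and 0.23 to 0.47 in SC, and for AQPA from 0.63 to 0.93 in CV, -0.61 to -0.28 in CU, 0.47 to 0.77 in KM and 0.82 to 1.09 in SC. The oedema slopes ran from -0.17 to -0.11 for AQP4, -0.088 to 0.092 for AQP1 and -0.54 to -0.29 for AQPA, and none passed.

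Same-numbered fish were not taken as pairs in the main model. With diet means taken off, same-numbered fish of a diet and FM correlated over 0.1 in 1 of 10 pairs in CV, 6 of 10 in CU, 2 of 10 in KM, 3 of 10 in SC and 6 of 7 in SBM. The median r was 0.14 in SBM and 0.16 in CU, against -0.01 in CV, 0.04 in KM and 0.01 in SC. In SBM 7 of 7 and in CU 9 of 10 such pairs shared a slide, and in the other diets 0 did. Fish number and shared slide cannot be told apart in SBM, and the main model took account of neither. With slide as a block no call changed, and in the replicate block fit the only changed call was that of AQP1 in CV against SBM. Counts of called probes moved by over 1.5 times from 1278 in CV against FM (343 with normexp, 2271 with no size limit, 634 in the deposited table, 548 to 588 under the other scalings and filters), from 647 in CU (144 with 2 diets alone, 333 with normexp, 1304 with no size limit), from 1347 in KM (541 with normexp, 860 with the median taken off, 2200 with no size limit), from 2715 and 2690 in SC and SBM (1677 and 1786 with normexp) and from 37 in SC against SBM (17 to 142). Against SBM with normexp they were 806 in CV, 564 in CU and 631 in KM. The dim signal of AQP1, the 10 fish per diet (7 in SBM) and the tie of array column to diet limit what these data can show.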
